A study of Homo sapiens with 15 samples.

Results

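Expression of 10 regulators and markers of the epithelial-mesenchymal transition was described, out of the 60675 genes in the deposited table. The genes were taken by name: the transcription factor genes SNAI1, SNAI2, TWIST1, TWIST2, ZEB1 and ZEB2, the cadherin genes CDH1 and CDH2, and the genes of vimentin (VIM) and fibronectin (FN1). All 10 names matched exactly 1 row, and 9 genes passed the filter on low counts that 19535 genes passed in all. CDH1 did not pass.

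RNA was sequenced from HT1080 cells, a human fibrosarcoma line derived from connective tissue, in 15 libraries that form 5 groups of 3 biological replicates. All cells had received an inhibitor of a lysine deacetylase (KDAC, also written HDAC), so the table used here holds no untreated control. 6CD1m cells (HDAC6 H216A, in the first catalytic domain of KDAC6) and 6CD2m cells (HDAC6 H611A, in the second) had been treated with 1 µM Tubastatin A, a KDAC6 inhibitor, for 2 days. 8CDm cells (HDAC8 H143A, catalytically inactive KDAC8) had been treated with 5 µM PCI-34051, a KDAC8 inhibitor, for 2 days. WT cells had been treated with 1 µM Tubastatin A or with 5 µM PCI-34051, in both cases for 14 days. Each mutation sits in the endogenous gene of 1 edited line, so mutation and line cannot be told apart. Every comparison of a mutant line with WT cells also compares 2 days with 14 days of treatment, and these cannot be told apart either.

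Library totals on genes ran from 10932437 to 19983699 counts (median 17551869). In all 5 groups replicate 1 stood further from its partners than they stood from each other, with chi-square values per gene of 7.24 to 46.1 against 2.63 to 7.21, and most so in 6CD1m cells and both WT groups (16.6 to 46.1). For the 10 genes and those named by rule from the wider lists, it is said beside the value where leaving out 1 library ended a call. Per the study, the missense mutations leave the targeted genes expressed, so counts of the targeted genes do not check the labels. The labelled tissue was only partly visible in its markers: VIM and FN1 made up most of a summed level of 3226 to 6577 CPM (counts scaled to a common library size) over 10 connective tissue markers, while DCN was at 0 counts and LUM and COL3A1 at no more than 3 in every library. Over 8 epithelial markers the sum was 377 to 535 CPM, nearly all from the keratin genes KRT8 and KRT18, with CDH1 and EPCAM at no more than 2 counts. The epithelial sum was 502 to 535 CPM in treated 6CD2m cells and 383 to 408 CPM in WT cells on Tubastatin A. The sum of 4 endothelial markers was 3.70 to 4.67 CPM in treated 6CD2m and 8CDm cells and at most 3.24 CPM elsewhere, and that of 4 immune markers was at most 3.42 CPM. The part of these markers in the results was not tested.

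Epithelial-mesenchymal transition is the program by which epithelial cells loosen their junctions and take on the shape and motility of mesenchymal cells. The SNAI and ZEB factors are zinc finger proteins that bind E-box sequences and are best known for repressing CDH1, the gene of the junctional protein E-cadherin. The TWIST factors are basic helix-loop-helix proteins that bind related E-boxes as dimers. N-cadherin (CDH2), the intermediate filament protein vimentin and the extracellular matrix protein fibronectin are the classic markers of the mesenchymal state. SNAI and ZEB factors are known to recruit deacetylase-containing corepressors to their targets.

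Promoter sequence from RefSeq (GRCh38.p14) was at hand for 6 of the 10 genes, and for 4 of them at least 100 bases lay both within 250 bases before the RefSeq start and before the first base of the GENCODE 29 gene. The 3 stretches below are shown because FN1 had the widest range of levels, TWIST2 followed TWIST1, and ZEB1 was highest in treated 8CDm cells while its paralog ZEB2 was not. They were searched on both strands for the E-box CANNTG. The form CACCTG, whose reverse complement is CAGGTG and which SNAI and ZEB factors prefer, is a subset of it and was counted apart. A further search was for the cyclic AMP response element TGACGTCA, which was added after the FN1 sequence had been read. CANNTG and TGACGTCA read the same on both strands. Capitals mark the preferred E-box form or the cyclic AMP response element. The stretches are chr2:215436173-215436318 on the minus strand for FN1, chr2:238847835-238848031 on the plus strand for TWIST2 and chr10:31318167-31318416 on the plus strand for ZEB1.
FN1: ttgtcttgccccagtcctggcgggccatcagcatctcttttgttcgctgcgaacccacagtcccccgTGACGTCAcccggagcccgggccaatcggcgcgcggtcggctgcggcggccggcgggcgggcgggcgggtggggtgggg
TWIST2: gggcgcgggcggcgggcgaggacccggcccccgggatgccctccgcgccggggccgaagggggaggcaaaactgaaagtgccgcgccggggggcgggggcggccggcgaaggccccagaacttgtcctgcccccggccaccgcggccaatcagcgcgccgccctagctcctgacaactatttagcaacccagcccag
ZEB1: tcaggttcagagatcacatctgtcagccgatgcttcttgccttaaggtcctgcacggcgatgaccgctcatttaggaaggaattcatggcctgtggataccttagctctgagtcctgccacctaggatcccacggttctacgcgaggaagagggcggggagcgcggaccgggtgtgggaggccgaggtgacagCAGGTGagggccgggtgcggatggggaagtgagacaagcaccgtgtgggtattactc

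The FN1 stretch held 1 TGACGTCA, which began 79 bases before the GENCODE gene and which 0.423% of 34770 promoter stretches of that length also held, and no CANNTG, which 44.4% held. The TWIST2 stretch, with a GC content of 75.6%, held no CANNTG, against 54.1% of stretches of its length. The ZEB1 stretch held 2 CANNTG, of which 1 was a CAGGTG that began 135 bases before the GENCODE gene. The preferred form was found on either strand in 17.5% of all stretches of 250 bases. A match is a description of the letters in the window and not evidence of binding.

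Levels differed widely between the genes. On the scale of CPM per kilobase of transcript, the median over libraries was highest for VIM at 2011, followed by FN1 at 135 and CDH2 at 27.8. The transcription factor genes were far lower, in the order TWIST2 (11.3), ZEB1 (8.51), SNAI2 (7.03), ZEB2 (5.79), TWIST1 (4.28) and SNAI1 (2.18), and CDH1 was at 0. A per-length level is used only to compare genes. All further levels are CPM after TMM scaling, and fold changes are log2 differences between groups from edgeR's quasi-likelihood test over all 19535 genes, called at a Benjamini-Hochberg adjusted p below 0.001. In bulk RNA, fewer cells with a transcript and less of it per cell cannot be told apart.

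**Figure D1:**
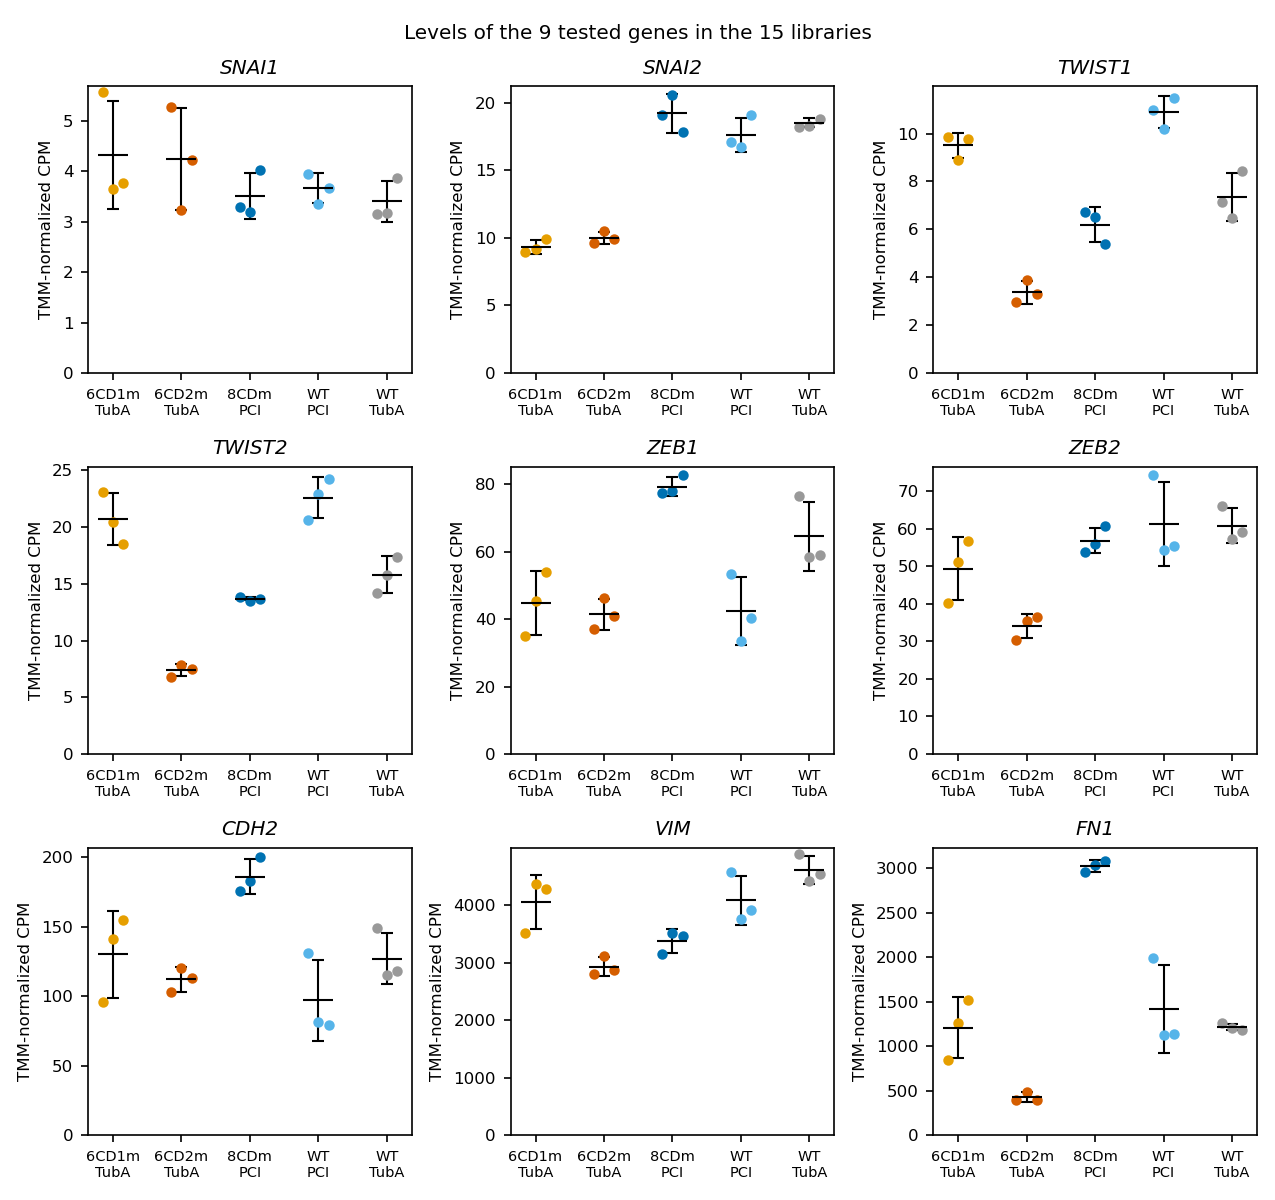
Levels of the 9 tested genes in TMM-normalized CPM (vertical axes, from 0) for each of the 15 libraries (points), with the mean and SD of each group of 3 (black). TWIST1, TWIST2 and FN1 were lowest in treated 6CD2m cells, SNAI2 was low in both KDAC6 mutant lines, and FN1 ranged from 393 to 3081 CPM.

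Levels differed among the 5 groups for 7 of the 9 tested genes, all but SNAI1 and CDH2, where 24.6% of all genes tested were called. The calls of SNAI2, TWIST1, TWIST2 and FN1 held whichever of the 15 libraries was left out, while those of ZEB1 and ZEB2 held in 4 and that of VIM in 3 of the 15 fits, and these 3 were lost with the replicate block (adjusted p = 0.0026, 0.0028 and 0.0034). The range between the highest and the lowest group mean was 7.11-fold for FN1, 3.22-fold for TWIST1, 3.06-fold for TWIST2 and 2.06-fold for SNAI2. It was narrower for ZEB1 and CDH2 (both 1.92-fold), ZEB2 (1.80-fold), VIM (1.57-fold) and SNAI1 (1.27-fold).

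In treated 6CD2m cells against WT cells on the same inhibitor, 6 of the 9 genes were lower (SNAI2, TWIST1, TWIST2, ZEB2, VIM and FN1) and none was higher, where 11.8% of all genes tested were called in either direction. With 1 library left out, 4 to 5 of the 9 were called. In treated 6CD1m cells against the same WT cells, 1 of 9 was called (SNAI2, lower), with 0.793% of all genes called. In treated 8CDm cells against WT cells on PCI-34051, 2 of 9 were called (TWIST1 and TWIST2, both lower), with 11.0% of all genes called. Which genes were called there depended on the fit. With offsets for GC content both TWIST calls were lost (adjusted p = 0.018 and 0.0012). ZEB1 (0.58), CDH2 (0.87) and FN1 (0.94) were called in their place, all higher. With the replicate block none was called. The median log2 fold change of the 9 genes was -0.84, -0.01 and -0.06 in these comparisons, against -0.01, -0.01 and -0.04 over all genes. Libraries of the compared groups did not overlap for 7, 6 and 6 of the 9 genes, and for 50.0%, 31.0% and 48.1% of all genes tested.

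Between the mutant lines, treated 6CD2m cells were lower than treated 6CD1m cells in 3 of 9 genes (TWIST1, TWIST2 and FN1), with 13.2% of all genes called. Treated 6CD2m cells were lower than treated 8CDm cells in 6 of 9 (SNAI2, both TWIST genes, both ZEB genes and FN1), with 9.96% of all genes called. In that comparison 3 of 9 (SNAI2, TWIST2 and FN1) were called whichever library was left out and with the replicate block, and the calls of TWIST1, ZEB1 and ZEB2 were lost each time. Treated 6CD1m cells were lower than treated 8CDm cells in 2 of 9 (SNAI2 and FN1), with 11.1% called. Libraries did not overlap for 5, 8 and 6 of the 9 genes in these 3 comparisons, and for 51.7%, 51.6% and 50.7% of all genes tested. In the comparisons of lines with 8CDm cells the inhibitor differed as well as the mutation, and these cannot be told apart.

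Between the WT groups, which differ in the inhibitor and its dose, edgeR called 0 of the 9 genes and 0.420% of all genes. With the replicate number as a block shared by all 5 groups, 27 genes were called in place of 82, and still none of the 9. A paired fit of the WT libraries alone was not run. At an unadjusted p below 0.05 the numbers were 3 of 9 genes (TWIST1, TWIST2 and ZEB1) and 30.0% of all genes, and DESeq2 called 0 of the 9. Across inhibitors, treated 6CD1m cells against WT cells on PCI-34051 had 1 of 9 called (SNAI2, lower) with 1.80% of all genes. Treated 6CD2m cells against the same WT cells had 5 of 9 called, all lower (SNAI2, both TWIST genes, ZEB2 and FN1), with 14.6%. Treated 8CDm cells against WT cells on Tubastatin A had 1 of 9 called (FN1, higher) with 10.2%. These comparisons share groups with each other, so their counts are not independent.

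**Figure D2:**
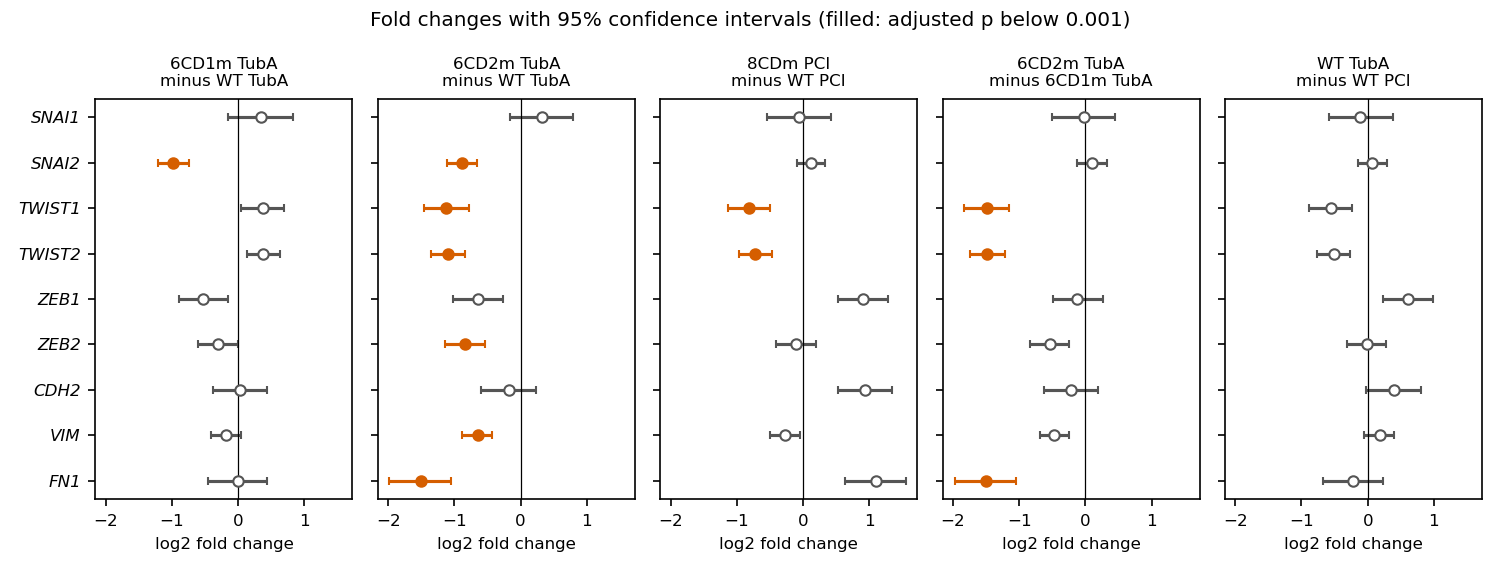
Log2 fold changes (horizontal axes) of the 9 tested genes in 5 comparisons, with 95% confidence intervals from the fit over all genes and filled points where the adjusted p was below 0.001. In treated 6CD2m cells against WT cells on Tubastatin A, 8 of 9 genes lie below 0, of which 6 are filled, and between the WT groups none is filled.

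SNAI1, the gene of Snail, had the smallest range between group means of the tested genes (1.27-fold). It is located at chr20:49982999-49988886 on the plus strand. Its level was 5.56, 3.65 and 3.76 CPM in treated 6CD1m cells, 5.27, 3.24 and 4.23 CPM in treated 6CD2m cells and 3.30, 3.20 and 4.03 CPM in treated 8CDm cells. It was 3.95, 3.35 and 3.67 CPM in WT cells on PCI-34051 and 3.15, 3.18 and 3.87 CPM in WT cells on Tubastatin A. All groups overlapped. The adjusted p for any difference among groups was 0.49, and with 49 to 89 counts per library the intervals were wide, from -0.16 to 0.79 for the log2 fold change of treated 6CD2m cells against WT cells on Tubastatin A.

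SNAI2, the gene of Slug, was 1.76 to 2.05-fold lower in both KDAC6 mutant lines than in the other groups. It lies at chr8:48917604-48921740 on the minus strand. Its level was 8.92, 9.19 and 9.90 CPM in treated 6CD1m cells and 9.59, 10.5 and 9.90 CPM in treated 6CD2m cells. In treated 8CDm cells it was 19.1, 20.6 and 17.8 CPM. The WT libraries held 17.1, 16.7 and 19.1 CPM on PCI-34051 and 18.2, 18.3 and 18.8 CPM on Tubastatin A. The 6 libraries of the KDAC6 mutant lines thus all lay below the 9 others, with no overlap.

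Against WT cells on Tubastatin A, SNAI2 fell by 0.98 ± 0.11 (log2, SE) in treated 6CD1m cells (adjusted p = 5.6e-05) and by 0.88 ± 0.10 in treated 6CD2m cells (adjusted p = 1.2e-05). The KDAC6 mutant lines did not differ from each other by the test (log2 difference 0.10, 95% interval -0.13 to 0.33, adjusted p = 0.50). In treated 8CDm cells SNAI2 differed from WT cells on PCI-34051 by 0.12 (interval -0.09 to 0.34, adjusted p = 0.36). The drop in 6CD1m cells kept an adjusted p of 0.00023 to 0.00073 with each library left out in turn, but missed the threshold in a fit of the 6 libraries alone and with GC offsets plus the replicate block (highest adjusted p 0.017). The drop in 6CD2m cells held in all alternatives run (highest adjusted p 0.00019).

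The ratio of SNAI2 to SNAI1 per kilobase split the groups as SNAI2 did. Within single libraries the ratio was 1.12 to 1.83 in treated 6CD1m cells and 1.26 to 2.25 in treated 6CD2m cells. It was 3.06 to 4.48 in treated 8CDm cells, 3.00 to 3.61 in WT cells on PCI-34051 and 3.38 to 4.01 in WT cells on Tubastatin A. A ratio within a library does not depend on how libraries were scaled. The GC content is 41.4% for SNAI2 and 58.2% for SNAI1. Fold changes of treated 6CD1m cells against WT cells on Tubastatin A moved with GC content (Spearman's rho 0.383). With GC offsets SNAI2 went from -0.98 to -0.82 there and SNAI1 from 0.34 to 0.16. The part of GC content in the ratio was not tested.

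**Figure D3:**
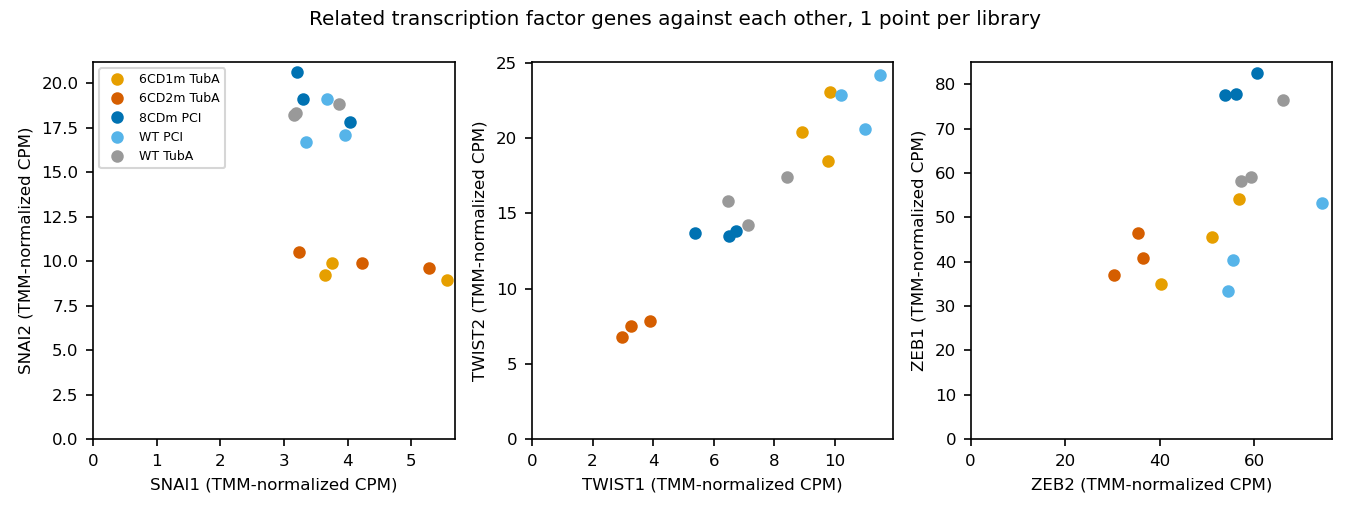
Levels of related transcription factor genes plotted against each other in TMM-normalized CPM, 1 point per library, colored by group, with all axes from 0. SNAI2 separated the KDAC6 mutant libraries (at most 10.5 CPM) from the others (at least 16.7 CPM) while SNAI1 did not, TWIST1 and TWIST2 lay along one line, and ZEB1 and ZEB2 did not keep one ratio.

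TWIST1 and TWIST2 followed each other closely over the groups, and treated 6CD2m cells were the lowest for both. TWIST1 lies at chr7:19020991-19117672 on the minus strand and TWIST2 at chr2:238848032-238910543 on the plus strand. TWIST1 was at 2.96, 3.90 and 3.28 CPM in treated 6CD2m cells and at 9.85, 8.91 and 9.76 CPM in treated 6CD1m cells. It was at 6.72, 6.50 and 5.37 CPM in treated 8CDm cells, 11.0, 10.2 and 11.5 CPM in WT cells on PCI-34051 and 7.13, 6.48 and 8.43 CPM in WT cells on Tubastatin A. The 6CD2m libraries lay below the other 12 with no overlap.

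TWIST2 was higher than TWIST1 in every library and kept the same order of groups. Its level was 6.81, 7.85 and 7.51 CPM in treated 6CD2m cells, 13.8, 13.5 and 13.7 CPM in treated 8CDm cells and 23.1, 20.4 and 18.5 CPM in treated 6CD1m cells. It was 20.6, 22.9 and 24.2 CPM in WT cells on PCI-34051 and 14.2, 15.8 and 17.4 CPM in WT cells on Tubastatin A. Again the 6CD2m libraries were below all others. Neighbors in the order of group means did not differ by the test for either gene, except that 6CD2m lay below 8CDm (adjusted p = 0.00074 for TWIST1 and 5.5e-05 for TWIST2).

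Against WT cells on Tubastatin A, TWIST1 fell by 1.12 ± 0.16 (adjusted p = 6.9e-05) and TWIST2 by 1.10 ± 0.12 (adjusted p = 6.3e-06) in treated 6CD2m cells. Against treated 6CD1m cells, which share the inhibitor, the dose, the time and the mutated protein, TWIST1 fell by 1.49 ± 0.16 (adjusted p = 5.1e-06) and TWIST2 by 1.48 ± 0.12 (adjusted p = 4e-07). These 4 calls held in all alternatives run, with a highest adjusted p of 0.00099. In treated 6CD1m cells against WT cells on Tubastatin A both genes were 0.37 to 0.38 higher without being called (adjusted p = 0.12 and 0.052). The called difference of TWIST1 between 6CD2m and 8CDm cells was lost whichever of the 6 libraries was left out (adjusted p = 0.0011 to 0.0065), while that of TWIST2 held.

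Treated 8CDm cells had less of both TWIST genes than WT cells on PCI-34051, by 0.81 ± 0.15 for TWIST1 (adjusted p = 0.00078) and 0.72 ± 0.12 for TWIST2 (adjusted p = 0.00026). Fold changes in this comparison moved with the GC content of the gene over 13946 protein-coding genes (Spearman's rho -0.454, a description across genes), and TWIST1 and TWIST2 are GC-rich at 57.2% and 57.0%. With offsets for GC content the log2 fold changes were -0.55 (adjusted p = 0.018) and -0.46 (adjusted p = 0.0012), and neither was called. The TWIST1 call was also lost whichever library was left out (adjusted p = 0.0019 to 0.0067), and the TWIST2 call held only without WT PCI-34051 replicate 1 (0.00021 to 0.0020). The part of GC content in the difference was not tested further.

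Over single libraries the genes also ran together. Pearson's r of their log2 CPM was 0.978 over the 15 libraries, and each was the gene most like the other among 14236 genes compared. The ratio of TWIST2 to TWIST1 per kilobase was 2.23 to 3.04 over all libraries, with group medians of 2.45 to 2.72. The genes are paralogs on different chromosomes, and none of their deposited values was fractional, which leaves no sign of reads divided between them. The points of the correlation share the groups, the libraries and a like GC content.

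ZEB1 and ZEB2 did not keep the same ratio over the groups, with a Pearson's r of their log2 CPM of 0.580 over the 15 libraries. ZEB1 (chr10:31318495-31529814, plus strand) was at 34.9, 45.5 and 54.1 CPM in treated 6CD1m cells, 37.0, 46.4 and 40.8 CPM in treated 6CD2m cells and 77.5, 77.9 and 82.6 CPM in treated 8CDm cells. WT cells held 53.3, 33.4 and 40.3 CPM on PCI-34051 and 76.4, 58.3 and 59.1 CPM on Tubastatin A. The 8CDm libraries were above the other 12. No neighbors in the order of group means differed by the test.

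The called difference of ZEB1 was that between treated 6CD2m and treated 8CDm cells (log2 difference -0.94 ± 0.18, adjusted p = 0.00085). It was lost whichever library was left out (adjusted p = 0.0024 to 0.0090) and with the replicate block (0.0029). Against WT cells on PCI-34051, ZEB1 was 0.90 ± 0.18 higher in treated 8CDm cells, which just missed the threshold (adjusted p = 0.0011). Without WT PCI-34051 replicate 1 the value was 1.11 (adjusted p = 0.00019), and with GC offsets it was 0.58 (adjusted p = 0.00052). It was not called in 5 of 6 fits with 1 library left out (adjusted p up to 0.0077) or with the replicate block (0.0032). ZEB1 has a GC content of 38.5%, at the AT-rich end of protein-coding genes. In treated 6CD2m cells against WT cells on Tubastatin A, ZEB1 was at -0.64 ± 0.18 and was not called (adjusted p = 0.011). With GC offsets that value was -0.72 (adjusted p = 5.8e-05).

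ZEB2 (chr2:144364364-144524583, minus strand) was lowest in treated 6CD2m cells, at 30.4, 35.4 and 36.5 CPM. It was at 40.3, 51.1 and 56.9 CPM in treated 6CD1m cells and 53.9, 56.1 and 60.7 CPM in treated 8CDm cells. WT cells held 74.3, 54.4 and 55.5 CPM on PCI-34051 and 66.1, 57.3 and 59.3 CPM on Tubastatin A. The 6CD2m libraries did not overlap with any other group, while the remaining groups overlapped with their neighbors.

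ZEB2 fell by 0.84 ± 0.14 in treated 6CD2m cells against WT cells on Tubastatin A (adjusted p = 0.0003). With any 1 library left out the value was between -0.74 and -0.89, but the call was lost each time (adjusted p = 0.0014 to 0.0041). It was lost with the replicate block as well (0.0012), while with GC offsets the value was -0.91 (adjusted p = 5.5e-07). The called difference from treated 8CDm cells was also lost with any 1 library left out (0.0036 to 0.011) and with the replicate block (0.0032). Against WT cells on PCI-34051, ZEB2 was 0.85 ± 0.14 lower in treated 6CD2m cells (adjusted p = 0.00024). That call was lost without any 1 of the 6CD2m libraries (adjusted p up to 0.0031) and in a fit of the compared libraries alone (0.0016). Against treated 6CD1m cells the difference was -0.54 ± 0.14 and missed the threshold (adjusted p = 0.0074). ZEB2 has a GC content of 39.1%, and with GC offsets that difference was -0.81 (adjusted p = 2.5e-06). Within libraries the ratio of ZEB1 to ZEB2 per kilobase ran from 0.939 to 1.11 in WT cells on PCI-34051 to 2.08 to 2.20 in treated 8CDm cells, with 1.32 to 1.45 in treated 6CD1m, 1.71 to 2.00 in treated 6CD2m and 1.52 to 1.77 in WT cells on Tubastatin A.

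CDH1, the epithelial cadherin that the factors above are known to repress, was near absent in all groups. It is located at chr16:68737225-68835548 on the plus strand. It had 2, 1 and 0 counts in treated 6CD2m cells, 2, 1 and 0 in treated 8CDm cells, 1, 0 and 0 in WT cells on PCI-34051, and 0 in all libraries of treated 6CD1m cells and of WT cells on Tubastatin A. All values lie below the 3 counts that a count of 0 still allows, a limit that covers counting error only, so no fold change is given. The lower levels of SNAI2, ZEB2 and the TWIST genes in 6CD2m cells thus stood beside a CDH1 level that was not detectably higher at this depth.

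CDH2, the gene of N-cadherin, was expressed in all groups and was not called in any comparison by the reported edgeR fit. Its level was 95.4, 141 and 155 CPM in treated 6CD1m cells, 103, 120 and 113 CPM in treated 6CD2m cells and 176, 183 and 200 CPM in treated 8CDm cells. WT cells held 131, 81.0 and 79.2 CPM on PCI-34051 and 149, 115 and 118 CPM on Tubastatin A. The 8CDm libraries were above all others, and the remaining groups overlapped. Against WT cells on PCI-34051 the log2 difference in treated 8CDm cells was 0.94 ± 0.19 (adjusted p = 0.0016). Without WT PCI-34051 replicate 1 it was 1.22 (adjusted p = 8.3e-05), and it was also called with DESeq2, GC offsets, upper-quartile scaling and no filter (adjusted p = 4.8e-06 to 0.00048). In 5 of 6 fits with 1 library left out (adjusted p up to 0.013) and with the replicate block (0.0049) it was not called. The gap from 8CDm down to 6CD2m cells was called with no filter (adjusted p = 0.00026) and in a fit of those 6 libraries alone (1.2e-06).

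CDH2 lies at chr18:27950966-28177446 on the minus strand, and chromosome 18 as a whole was lower in treated 6CD2m cells. The median log2 fold change of its 191 tested protein-coding genes against WT cells on Tubastatin A was -0.79, where the median of all protein-coding genes was -0.03. CDH2 was at -0.18 (interval -0.59 to 0.23), and 18 of the 191 genes had a higher value. Of the 5 tested protein-coding neighbors on each side, ZNF521 (-1.32), KCTD1 (-1.06), DSC2 (-2.85), DSG2 (-1.68), B4GALT6 (-1.34), SS18 (-0.78) and IMPACT (-0.68) were called lower, while TAF4B (-0.45), TRAPPC8 (-0.67) and RNF125 (0.35) were not called. Chromosome 2, which holds TWIST2, ZEB2 and FN1, had a median of -0.22 over 914 tested protein-coding genes in the same comparison. No reason for either shift was tested.

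**Figure D4:**
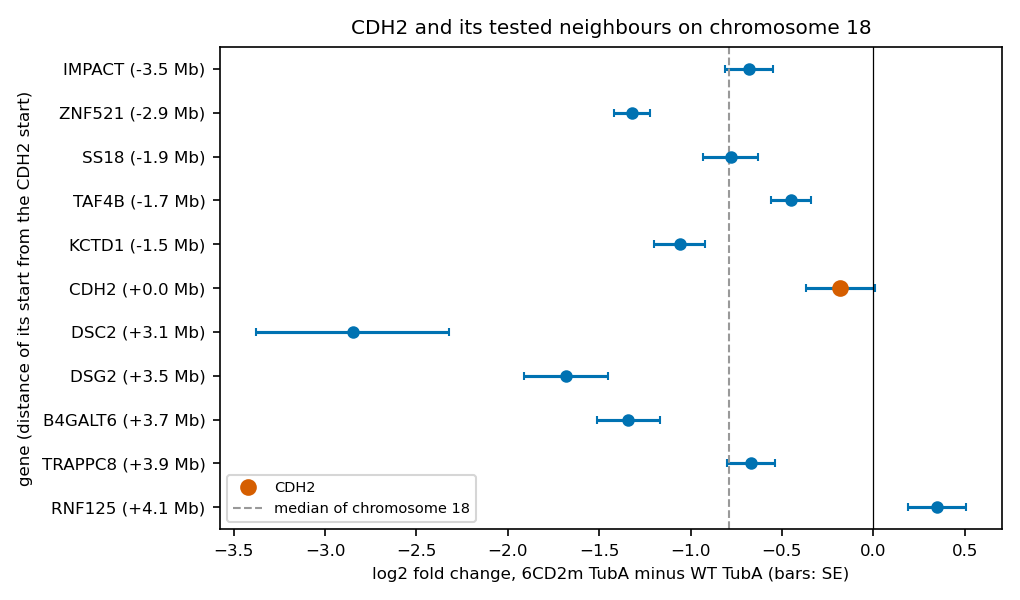
Log2 fold changes (horizontal axis, bars show the SE) of CDH2 and the 5 nearest tested protein-coding genes on each side, in treated 6CD2m cells against WT cells on Tubastatin A, ordered by the distance of their lower coordinate from that of CDH2. CDH2 lies at -0.18, to the right of the chromosome median of -0.79 (dashed), and only RNF125 of the 10 neighbors lies above 0.

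VIM was the most abundant of the genes and the one with the smallest called change. It lies at chr10:17228259-17237593 on the plus strand. Its level was 2809, 3113 and 2871 CPM in treated 6CD2m cells, 3141, 3522 and 3459 CPM in treated 8CDm cells and 3514, 4368 and 4273 CPM in treated 6CD1m cells. WT cells held 4570, 3757 and 3915 CPM on PCI-34051 and 4887, 4412 and 4535 CPM on Tubastatin A. The 6CD2m libraries were below all others, by a narrow margin to the lowest 8CDm library.

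VIM fell by 0.65 ± 0.11 in treated 6CD2m cells against WT cells on Tubastatin A (adjusted p = 0.0002). Without 6CD2m replicate 2 the call held (adjusted p = 0.00077), and without any of the other 5 libraries it was lost, with log2 values of -0.57 to -0.65 and a highest adjusted p of 0.0029. The replicate block also ended the call (adjusted p = 0.0011). In treated 8CDm cells against WT cells on PCI-34051 the value was -0.27 ± 0.10 (adjusted p = 0.053). The deposited values of VIM were fractional in all 15 libraries, and those of ZEB1 in 7, so some reads were divided with other genes. Antisense genes of VIM, ZEB1 and ZEB2 are in the table, and how the counting used strand is not given in the sources used here.

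FN1 had the widest range of the genes and was lowest in treated 6CD2m cells and highest in treated 8CDm cells. It lies at chr2:215360440-215436172 on the minus strand. Its level was 393, 486 and 396 CPM in treated 6CD2m cells and 2951, 3037 and 3081 CPM in treated 8CDm cells. It was 840, 1262 and 1514 CPM in treated 6CD1m cells, 1988, 1120 and 1133 CPM in WT cells on PCI-34051 and 1253, 1204 and 1185 CPM in WT cells on Tubastatin A. The 6CD2m libraries were below all others and the 8CDm libraries above, while the 3 groups between them overlapped and did not differ by the test (adjusted p = 0.49 to 0.98).

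FN1 fell by 1.51 ± 0.22 in treated 6CD2m cells against WT cells on Tubastatin A (adjusted p = 6.9e-05), a 2.86-fold difference that held in all alternatives run. Against treated 6CD1m cells it fell by 1.50 ± 0.22 (adjusted p = 7.8e-05). Without 6CD2m replicate 1 that value was -1.43 with an adjusted p of 0.0010, at the edge of the threshold. Treated 6CD1m cells and WT cells on Tubastatin A were alike in mean, with a log2 difference of -0.01 and an interval of -0.46 to 0.44.

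In treated 8CDm cells FN1 was 1.10 ± 0.21 above WT cells on PCI-34051 and just missed the threshold (adjusted p = 0.0011). The libraries did not overlap, as for 48.1% of all genes tested. Without WT PCI-34051 replicate 1, whose level of 1988 CPM stood apart from the other 2 at 1120 and 1133, the value was 1.43 (adjusted p = 3.3e-05). With GC offsets it was 0.94 (adjusted p = 0.00037). No call was made in 5 of 6 fits with 1 library left out (adjusted p up to 0.0092) or with the replicate block (0.0038). Against WT cells on Tubastatin A FN1 was 1.32 ± 0.21 higher (adjusted p = 0.00027), a call that was lost whichever library was left out (0.0015 to 0.0025). The FN1 gap from 8CDm down to 6CD2m cells, -2.83 ± 0.23, held in all alternatives run (adjusted p = 2.1e-07). That from 8CDm down to 6CD1m cells, -1.33 (adjusted p = 0.00025), was lost with the replicate block (0.0012) and in 4 of 6 fits with 1 library left out (up to 0.0018). Within libraries VIM exceeded FN1 per kilobase by 30.5 to 34.6-fold in treated 6CD2m cells and 5.07 to 5.53-fold in treated 8CDm cells, with 11.0 to 19.9-fold in the other groups.

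The change of treated 6CD2m cells and that of treated 8CDm cells, each against WT cells on the same inhibitor, differed for 3 of the 9 genes, where 5.16% of all genes differed. For the change of treated 6CD1m cells against that of 8CDm cells the number was also 3 of 9, where 5.42% of all genes differed. These comparisons were added after the values had been seen.

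Wider lists of genes around the transition gave counts that did not all follow the members. In treated 6CD2m cells against WT cells on Tubastatin A, 15 of 23 epithelial markers were tested, 3 rose and 2 fell (median log2 fold change 0.44, against -0.01 over all genes), where 11.8% of all genes were called. With 1 library left out 2 to 3 rose and 1 to 2 fell. OCLN, the gene of the tight junction protein occludin, rose from 5.14 to 6.68 CPM in WT libraries to 16.2 to 18.9 CPM (log2 fold change 1.57, adjusted p = 3.2e-06). DSP, the gene of the desmosomal plaque protein desmoplakin, rose by 0.93 (adjusted p = 5.1e-05). The genes that fell, DSC2 and DSG2, code for desmosomal cadherins and are the chromosome 18 neighbors of CDH2 named above. The call of DSC2 was lost with the replicate block (adjusted p = 0.0018) and held in 1 of 6 fits with 1 library left out (0.00085 to 0.0061). The third gene that rose was CLDN1, a claudin gene at a low level, with a mean of 2.10 CPM in treated 6CD2m cells and 0.0369 CPM in WT cells, outside the rule for named genes. OCLN and DSP were called whichever library was left out, so the CLDN1 call was lost in at least 1 of these fits.

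Among 16 tested mesenchymal markers, 4 rose and 1 fell (median 0.50), where 11.8% of all genes were called. TAGLN, the gene of the actin-binding protein transgelin, rose from 10.7 to 15.9 CPM in WT libraries to 100 to 117 CPM (log2 fold change 2.97, adjusted p = 3.1e-09). TNC, the gene of the matrix protein tenascin C, rose by 1.21 (adjusted p = 4.8e-06) and ACTA2, the gene of smooth muscle actin, by 1.05 (adjusted p = 0.00023). MMP2, which also rose (0.82, adjusted p = 0.0009), is outside the rule for named genes. CDH11, another mesenchymal cadherin gene, fell by 0.97 (adjusted p = 0.00086). The calls of TAGLN and TNC held whichever library was left out, that of ACTA2 held only without WT Tubastatin A replicate 1 (adjusted p = 0.00069 to 0.0021), and that of CDH11 was lost each time (0.0037 to 0.0077) and with the replicate block (0.003). TAGLN and TNC were thus higher in these cells, in which FN1 was lower. This opposite direction was not seen in treated 8CDm cells against WT cells on the same inhibitor. TAGLN (1.54) and TNC (1.06) were called higher there too. FN1 was also higher there, by 1.10, and just missed the threshold (adjusted p = 0.0011).

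Of 16 genes of the TGF-beta pathway, a main inducer of the transition, 1 rose and 8 fell in treated 6CD2m cells (median -0.47), where 1410 of the 19535 genes tested fell. With 1 library left out 2 to 3 fell, and 4 with the replicate block. The ligand gene TGFB2 rose from 19.3 to 26.3 CPM in WT libraries to 89.4 to 105 CPM (log2 fold change 2.12, adjusted p = 9.8e-07). LTBP1, which codes for a protein that binds latent TGF-beta, fell by 0.97 (adjusted p = 0.00052), the signal transducer SMAD3 by 0.94 (adjusted p = 2.2e-07) and the inhibitory SMAD7 by 0.93 (adjusted p = 5.8e-05). The call of LTBP1 was lost whichever library was left out (adjusted p = 0.0022 to 0.0057), with the replicate block (0.002) and with GC offsets (0.0017). Of the genes that fell, SMAD7, SMAD2 (-0.90) and SMAD4 (-0.88) lie on chromosome 18, whose median is given above, and SMAD2 and SMAD4 are outside the rule for named genes. SMAD3 and SMAD7 were called in each fit with 1 library left out, so SMAD2 and SMAD4 were not both called in any of these fits. Of 20 tested partners and regulators of the transcription factors, 0 rose and 5 fell (median -0.20), or 3 to 4 with 1 library left out. They included the dimerization partner gene TCF4, also on chromosome 18 (-1.40, adjusted p = 1.3e-06), and the inhibitor genes ID1 (-1.37, adjusted p = 1.4e-06) and ID3 (-1.13, adjusted p = 1.1e-05), whose proteins bind the partners of TWIST factors.

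Of 9 tested genes of the cadherin-catenin complexes, 3 rose and none fell in treated 6CD2m cells (median 0.12), where 11.8% of all genes were called. JUP, the gene of plakoglobin, was at 18.8 to 19.9 CPM against 2.98 to 3.12 CPM in WT libraries (2.68, adjusted p = 3.1e-08). CDH4, the gene of R-cadherin, was at 96.3 to 105 CPM against 13.4 to 18.2 CPM (2.60, adjusted p = 4.1e-10). PKP2, the gene of the desmosomal protein plakophilin 2, rose by 1.33 (adjusted p = 2.5e-05).

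**Figure D5:**
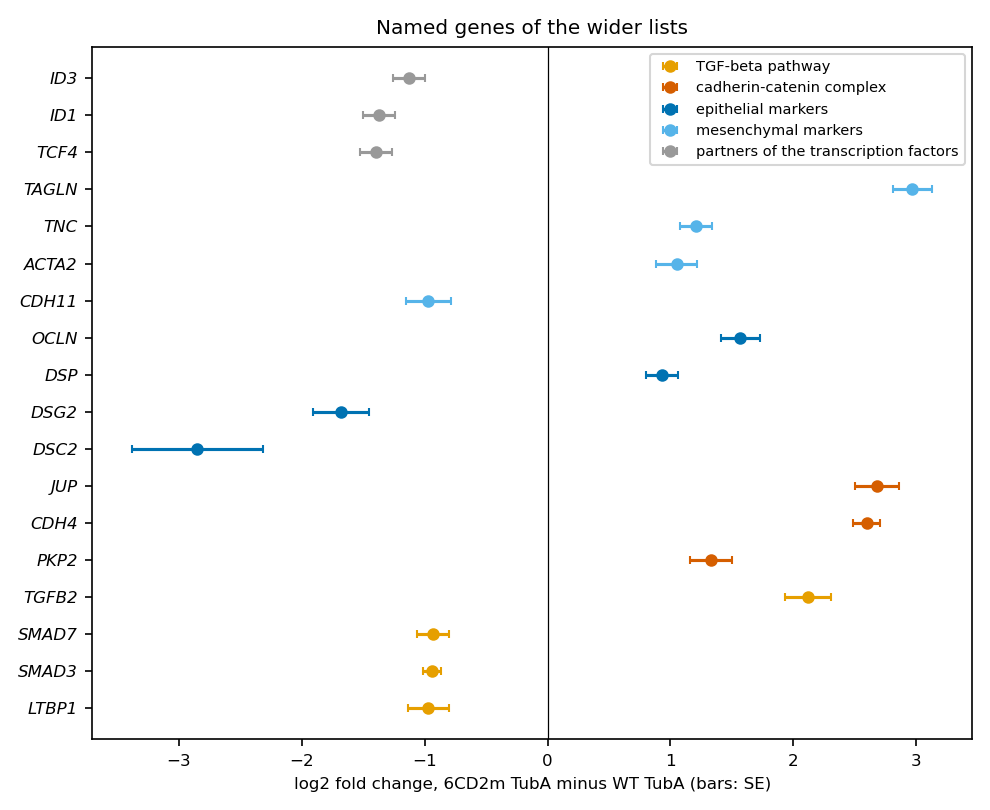
Log2 fold changes (horizontal axis, bars show the SE) of the named genes of 5 wider lists in treated 6CD2m cells against WT cells on Tubastatin A, colored by list. TAGLN (2.97), JUP (2.68), CDH4 (2.60) and TGFB2 (2.12) lie highest and DSC2 (-2.85) and DSG2 (-1.68) lowest.

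In treated 8CDm cells against WT cells on PCI-34051 11.0% of all genes were called, and the same lists gave 2 higher and 0 lower of 15 epithelial markers (median 0.33, against -0.04 over all genes), 2 higher and 1 lower of 16 mesenchymal markers (0.06), and 1 higher and 3 lower of 16 TGF-beta genes (-0.47). They gave 0 higher and 4 lower of 20 partners (-0.09) and 1 higher and 1 lower of 9 cadherin-catenin genes (0.04). With GC offsets the lower mesenchymal gene PDGFRB (adjusted p = 0.022) and the higher TGF-beta gene SKIL (0.0048) lost their calls. So did the TGF-beta gene SMAD7 (0.0034) and the partner FOXC2 (0.0018), both lower. With 1 library left out, PDGFRB and SKIL were each called in 1 of 6 fits and SMAD7 in 3 of 6. DSP rose by 2.24 (adjusted p = 1.5e-08) and DSG2 by 1.38 (adjusted p = 0.00028), TAGLN by 1.54 (adjusted p = 2.6e-06) and TNC by 1.06 (adjusted p = 2.4e-05). The genes that fell included TGFBR3 (-1.74, adjusted p = 1.4e-06), a TGF-beta co-receptor, SMAD3 (-1.33, adjusted p = 7.7e-09) and ID1 (-1.29, adjusted p = 3.1e-06). JUP was at 0.975 to 1.42 CPM against 3.92 to 4.38 CPM (-1.77, adjusted p = 9.3e-06), and CDH4 at 55.2 to 61.0 CPM against 16.8 to 18.4 CPM (1.71, adjusted p = 3.4e-08). The call of DSG2 held only without WT PCI-34051 replicate 1 (adjusted p = 5.2e-05 to 0.0027) and was lost with the replicate block (0.0012). That of JUP was lost with GC offsets plus the replicate block and in a fit of the 6 libraries alone. Apart from PDGFRB, SKIL and SMAD7, the other named calls held whichever library was left out.

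JUP and DSG2 had log2 fold changes of opposite sign in the treated 6CD2m and 8CDm cells. The difference between the changes, tested in the same model, was 4.45 ± 0.26 for JUP (adjusted p = 1.7e-08) and -3.06 ± 0.32 for DSG2 (adjusted p = 8e-06). For TAGLN it was 1.43 ± 0.21 (adjusted p = 0.0002), and these 3 calls held in 12 of 12 fits with 1 library left out. For TNC it was 0.16 ± 0.18 (adjusted p = 0.59) and for ID1 -0.08 ± 0.18 (adjusted p = 0.80).

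In treated 6CD1m cells against WT cells on Tubastatin A few genes of these lists were called. The counts by edgeR were 0 of 15 epithelial markers, 1 of 16 mesenchymal markers (TAGLN, 1.26 higher, adjusted p = 0.00018), 0 of 16 TGF-beta genes, 0 of 20 partners and 1 of 9 cadherin-catenin genes (CDH4, 1.60 higher, adjusted p = 7.2e-07), where 0.793% of all genes were called. DESeq2 called 4 TGF-beta genes there, all lower. The TAGLN call was lost without 6CD1m replicate 2 (adjusted p = 0.0014) and in a fit of the 6 libraries alone. CDH4 was thus higher in each of the 3 mutant lines than in WT cells on the same inhibitor, and these calls held whichever library was left out, although that in 6CD1m cells was lost in a fit of the 6 libraries alone.

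Without the replicate block, 3 genes of these lists were called between the WT groups, where 0.420% of all genes were called. None of the 3 was called with the block, which all 5 groups share (adjusted p = 0.0026 for SMAD3, 0.0038 for TCF4 and 0.003 for EZH2). Each of the 3 calls held in 1 of 6 fits with 1 library left out, that without WT PCI-34051 replicate 1. Values are given for Tubastatin A against PCI-34051. SMAD3 had a log2 fold change of -0.60 ± 0.07 (adjusted p = 0.00034). TCF4 was 0.95 ± 0.13 higher (adjusted p = 0.00075) and EZH2, the histone methyltransferase gene of a repressive Polycomb complex, 0.66 ± 0.09 higher (adjusted p = 0.00093). None of the epithelial, mesenchymal or cadherin-catenin genes was called there by edgeR, with list medians of 0.05, 0.06 and 0.07 against 0.01 over all genes, and DESeq2 called 1 epithelial marker.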

How the data were processed

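Total RNA from HT1080 lines was rRNA-depleted and sequenced. The authors deposited expected counts per gene, that is, read estimates of which 21.8% of the nonzero ones were fractions, without normalization. The submitters' processing notes name Trimmomatic 0.39, Bowtie2 2.4.5, RSEM 1.3.3, DESeq2 1.38.2 and GRCh38, with no roles given, and the gene annotation is not given in the sources used here. Values were rounded to whole counts. Groups and replicate numbers came from the labels. The precision of low genes is limited by their counts, and p-values measure the spread between these replicates.

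Tests used edgeR 4.0.16 and limma 3.58.1 under R 4.3.3. Low genes were filtered with edgeR's filterByExpr, libraries were scaled by TMM, and all 15 libraries entered 1 quasi-likelihood model with a mean per group, at the false discovery rate of 0.001 that the study used. The model's procedure was tested on simulated counts. Tables and figures were made in Python 3.11.15 with numpy 2.4.6, pandas 2.3.3 and matplotlib 3.10.9. Positions, transcript lengths and GC content came from GENCODE 29 on GRCh38, which matched 57055 identifiers. CPM per kilobase divides by the longest coding transcript. Alternatives were DESeq2 1.42.0, upper-quartile scaling, no filter, the compared libraries alone, a replicate block, offsets for GC content, and leaving out each library. Same-numbered replicates deviated together between the WT groups (r = 0.505, 0.235 and 0.169) and not in other comparisons, so the number pairs the WT groups, as a property of these data. The replicate block was shared by all 5 groups and is not a pairing of the WT groups alone.

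The 10 genes and the wider lists (epithelial markers, mesenchymal markers, TGF-beta pathway, partners of the transcription factors, cadherin-catenin complex, and markers of connective tissue, epithelial, endothelial and immune cells) were chosen with earlier results of these data known. From the wider lists, up to 3 called genes per direction with an average log2 CPM of at least 1, non-overlapping libraries and the largest change were eligible to be named, with some left out here for length. Correlations with other genes are over log2 CPM.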

Additional observations from a re-analysis of the deposited data

Results flagged for a closer look

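The change of a mutant line relative to WT cells on the same inhibitor differed between lines for some genes, tested as a difference of log2 fold changes in the model over all genes. The KDAC6 and KDAC8 arms differ in inhibitor and dose as well as in mutation, and these cannot be told apart. Between treated 6CD2m and treated 8CDm cells the difference was -2.61 ± 0.30 for FN1 (adjusted p = 2.2e-05), the gene of the matrix protein fibronectin, which was lower in all 3 6CD2m libraries and higher in all 3 8CDm libraries than in the WT libraries on the same inhibitor. It held in all alternatives run, with an adjusted p of at most 0.00018. For ZEB1 the difference was -1.55 ± 0.25 (adjusted p = 0.0004), a call that held in 2 of 12 fits with 1 library left out (adjusted p = 6.4e-05 to 0.0025) and was lost with the replicate block (0.0017). For SNAI2 it was -1.01 ± 0.15 (adjusted p = 0.00016), and with GC offsets it was -0.81 with an adjusted p of 0.0021. Without 6CD2m replicate 1 the adjusted p of SNAI2 was 0.001, at the edge of the threshold.

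Between treated 6CD1m and treated 8CDm cells the difference was -1.11 ± 0.15 for SNAI2 (adjusted p = 9.5e-05), -1.43 ± 0.25 for ZEB1 (adjusted p = 0.0008) and 1.11 ± 0.17 for TWIST2 (adjusted p = 0.00025). With GC offsets these were -0.72 (adjusted p = 0.0057), -0.91 (0.00041) and 0.69 (0.0012). With 1 library left out, the SNAI2 call held in 12 of 12 fits, that of TWIST2 in 8 of 12 and that of ZEB1 in 2 of 12. Fold-change differences moved with GC content in this comparison across genes (Spearman's rho 0.526). What part GC content had was not tested further.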

How the results depend on the processing

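In this paragraph and the next, counts are genes called at the false discovery rate of 0.001, with the members called in parentheses, and for each alternative except leaving out libraries they are given where they moved by over 1.5 times. No member value that was called changed sign under any alternative. Of 465 alternative values of the 33 called member values, 347 kept their call and 118 lost it, and of 1047 values of uncalled members 40 gained one. With upper-quartile scaling 3 of 50 group levels moved by over 1 SD. Reported counts were 155 (1) for 6CD1m against WT on Tubastatin A, 2310 (6) for 6CD2m against the same, 2140 (2) for 8CDm against WT on PCI-34051, 82 (0) between WT groups, 2578 (3) for 6CD2m against 6CD1m, 1946 (6) for 6CD2m against 8CDm, 2161 (2) for 6CD1m against 8CDm, 351 (1) and 2859 (5) for 6CD1m and 6CD2m against WT on PCI-34051, 1993 (1) for 8CDm against WT on Tubastatin A, 1008 (3) and 1059 (3) for the differences of changes of 6CD2m and 6CD1m, and 4807 (7) for any difference. The low genes SNAI1 and CDH1 are limited by depth.

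In that order DESeq2 called 616, 3642, 3849 (5), 705, 4271, 3103, 3912 (4), 1052, 4610, 3240 (2), 1959, 2981 and 8600. Without the filter the counts were 428 for 6CD1m against WT on Tubastatin A, (4) for 8CDm against WT on PCI-34051, 320 between WT groups, 543 for 6CD1m against WT on PCI-34051, 2576 for the 6CD1m difference and 7339 for any difference. Upper-quartile scaling gave (5) for 8CDm against WT on PCI-34051 and (2) against WT on Tubastatin A. In fits of only the libraries compared, the values were 9 (0) for 6CD1m against WT on Tubastatin A, 829 (0) for 8CDm against WT on PCI-34051, 1 between WT groups, 1088 for 6CD2m against 6CD1m, 4179 for 6CD2m and 890 for 6CD1m against 8CDm, 5 (0) and 1682 (3) for 6CD1m and 6CD2m against WT on PCI-34051, and 555 (1) for the 6CD1m difference. GC offsets gave 259 for 6CD1m against WT on Tubastatin A, 160 between WT groups and (1) for the 6CD1m difference. The cause of these shifts was not tested.

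The replicate block gave 76 for 6CD1m against WT on Tubastatin A, 1410 (0) for 8CDm against WT on PCI-34051, 27 between WT groups, (3) and (1) for 6CD2m and 6CD1m against 8CDm, 160 for 6CD1m against WT on PCI-34051, (0) for 8CDm against WT on Tubastatin A, 563 (1) for the 6CD1m difference and (4) for any difference. Together with GC offsets it gave (0) for 6CD1m against WT on Tubastatin A, for 8CDm against WT on PCI-34051 and for the 6CD1m difference. Outside the WT groups same-numbered libraries shared only a number. It changed no other count of members by over 1.5 times.

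Leaving out each library in turn gave, in the order of the reported counts, 64 to 107 (1), 1441 to 1635 (4 to 5), 1119 to 2593 (0 to 4), 25 to 147 (0), 1423 to 2318 (2 to 4), 1260 to 1308 (3), 1252 to 1994 (1 to 2), 138 to 299 (1), 1634 to 3307 (4 to 5), 1195 to 1395 (0), 676 to 1229 (1 to 4), 577 to 2363 (1 to 5) and 3403 to 6057 (4 to 8).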

Other observations

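Genes whose log2 CPM ran most like that of a member over the 15 libraries were ranked among 14236 genes. The points share groups, libraries and depth, so these values are descriptions with no test. SNAI2 was most like GLUL, the gene of glutamine synthetase (r = 0.959), IL24 (0.948) and ATP6V0D2 (0.944). ZEB2 was most like EGFR, the epidermal growth factor receptor gene (0.979), SLC23A2 (0.967) and OGDH (0.960). ZEB1 was most like STRN (0.978), YES1 (0.975) and C1GALT1 (0.973), and FN1 like GIGYF2 (0.975), MAP4K4 (0.975) and TNFRSF19 (0.974).

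TWIST1 was most like TWIST2, followed by PIAS3 (0.952) and PUSL1 (0.949), and TWIST2 had GAS2L1 (0.973) and JPH4 (0.969) after TWIST1. CDH2 was most like ZNF512 (0.970), HNRNPR (0.962) and FIGNL1 (0.961), and VIM like ARF1 (0.973), RQCD1 (0.972) and PPP2R5D (0.972). SNAI1 had no close match, with FANCC (0.783), TESK2 (0.762) and GOLGA8R (0.760) at the top. Among the members themselves, ZEB1 and CDH2 had an r of 0.873, ZEB2 and FN1 0.800, ZEB2 and VIM 0.797, and SNAI1 and SNAI2 -0.589.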
